A study of Mus musculus with 6 samples.

Results

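The elastic fibre genes of the mouse abdominal aorta were followed in *Prdm16* SMKO mice and control mice. The 10 genes were *Eln*, *Fbn1*, *Fbn2*, *Fbln1*, *Fbln5*, *Efemp1*, *Efemp2*, *Emilin1*, *Mfap4* and *Mfap5*, taken by gene symbol from the 55426 genes of the deposited expression table, in which each symbol stood in 1 row. Of the 10 genes, 9 averaged 0.5 TPM or more over the 6 libraries and were tested among 15775 such genes, and *Fbn2* was below that minimum. TPM, transcripts per 1000000, scales each gene by its transcript length and gives every library the same total, so levels of different genes can be compared with each other.

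Both groups were male mice from lines backcrossed to C57BL/6J, with 3 abdominal aorta libraries each. *Prdm16* SMKO mice were *Prdm16* fl/fl *Myh11*-CreERT2, and the control mice were *Myh11*-CreERT2, so both groups carried the tamoxifen-inducible Cre, which sits on the Y chromosome and is driven by the *Myh11* promoter of smooth muscle cells throughout the body. The study's methods give male mice of 8 to 10 weeks tamoxifen at 75 mg/kg/day by gavage for 5 days. In that description, which is of the study's aneurysm model, the experiment began 2 weeks after tamoxifen, and no separate interval is stated for the sequenced aortas. PRDM16 is a zinc-finger transcriptional regulator, and the comparison asks which aortic transcripts differ when it is deleted in vascular smooth muscle cells (VSMCs). Whether control mice carried the floxed allele is not stated. If they did not, the deletion and the floxed allele with its linked DNA cannot be told apart. The labels number the libraries but do not name the mice, so p-values measure the spread between these libraries. Values of single libraries are given below in the order of replicates 1, 2 and 3.

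Elastic fibres give the aorta its recoil and are laid down as concentric lamellae, mostly by VSMCs and early in life. Elastin, the product of *Eln*, forms the core after it has been crosslinked by lysyl oxidases, and a sheath of fibrillin microfibrils guides its deposition. Fibulins, EMILIN1 and the microfibril-associated proteins join elastin to the microfibrils and to the crosslinking enzymes.

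*Prdm16* itself stood at 33.4, 36.8 and 30.8 TPM in the control libraries and 20.8, 27.7 and 14.8 TPM in the *Prdm16* SMKO libraries. The groups did not overlap, with means of 33.7 ± 3.04 and 21.1 ± 6.46 TPM (SD, n = 3), and the difference did not pass the test (log2 fold change −0.70, limma adjusted p = 0.376). Its TPM covers all of its exons and all cells of the vessel wall. Between 15.8% and 27.4% of the TPM of a library came from mitochondrial genes and between 15.6% and 31.5% from ribosomal RNA genes, with overlapping ranges in both groups. The 8 VSMC markers summed to 15120 to 25620 TPM in control and 11690 to 17890 TPM in *Prdm16* SMKO libraries and so were abundant in all 6 libraries labelled as aorta, with *Acta2* and *Tagln* leading the list.

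*Eln* was by far the most abundant of the 10 genes in every library. In control aortas it was at 2690 ± 793 TPM (SD, n = 3), the 33rd highest of all genes in the table by mean, and it was followed by *Mfap4* at 319 ± 92.6, *Fbln5* at 231 ± 50.6, *Emilin1* at 114 ± 24.6, *Mfap5* at 104 ± 16.2, *Efemp2* at 93.0 ± 17, *Fbn1* at 55.2 ± 14.1 and *Fbln1* at 51.3 ± 6.99 TPM. *Efemp1* was far lower, at 3.65 ± 0.53 TPM, and *Fbn2* was close to 0. In that order the control ranges of *Mfap4* and *Fbln5*, of *Emilin1* and *Mfap5*, of *Mfap5* and *Efemp2*, and of *Fbn1* and *Fbln1* overlapped, while every other pair of neighbours was separate. In *Prdm16* SMKO aortas *Eln* still came first and *Mfap4*, *Fbln5*, *Mfap5*, *Efemp2*, *Emilin1*, *Fbln1*, *Fbn1*, *Efemp1* and *Fbn2* followed, with *Emilin1* in the sixth place instead of the fourth. The ranges of *Mfap4* and *Fbln5*, *Efemp2* and *Emilin1*, *Emilin1* and *Fbln1*, and *Fbln1* and *Fbn1* overlapped there. Exons of *Eln*, *Fbn1*, *Efemp2* and *Mfap4* overlap those of *Gm30003*, *Gm9913*, *Mus81* and *Mapk7* on the opposite strand, which were at 0.27 to 16.5 TPM, and whether strand was used in counting was not given in the sources used here, so reads of the shared stretches cannot be told apart.

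**Figure D1:**
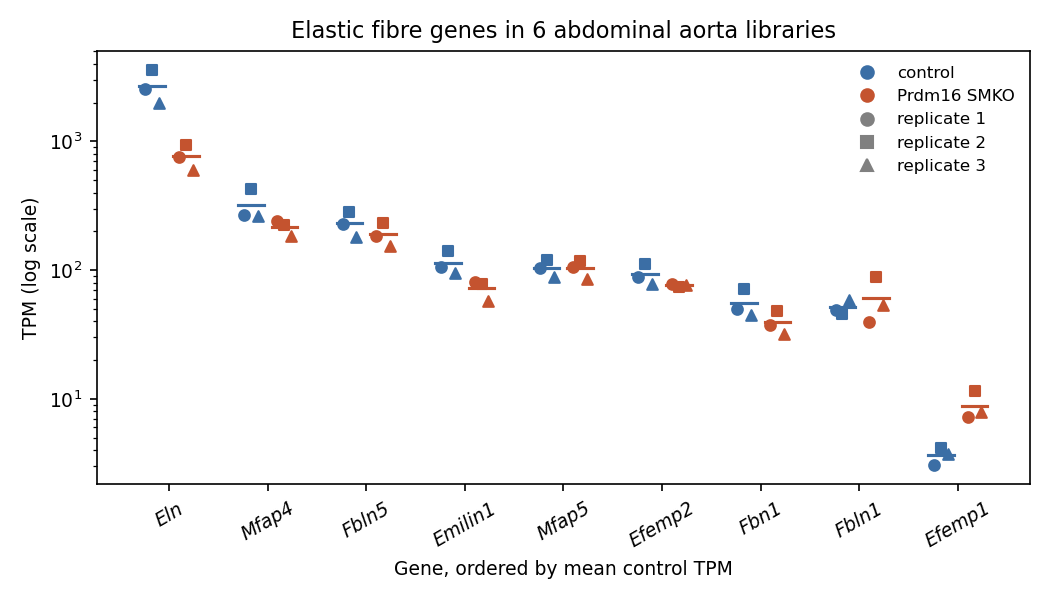
TPM of 9 elastic fibre genes on a log axis, with genes on the horizontal axis ordered by their mean in control aortas. Points are single libraries (circle, square and triangle for replicates 1, 2 and 3), blue for control and red for *Prdm16* SMKO, and bars are group means. The 3 red points of *Eln* lie at 597 to 941 TPM, under all blue points at 1988 to 3550.0 TPM, and those of *Efemp1* lie above the blue points.

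Of the 9 genes tested, 1, *Eln*, was called at an adjusted p under 0.05 (limma on log2(TPM + 0.5), Benjamini-Hochberg over all genes), against 0.355% of all 15775 genes. On the log2 scale 7 of the 9 had a negative and 2 a positive fold change, with a median of −0.28 against 0.02 over all genes tested. At an unadjusted p under 0.05 there were 3 lower genes (*Eln*, *Emilin1* and *Mfap4*), against 3.85% of all genes, and 1 higher gene (*Efemp1*), against 4.88%. Libraries of either group formed separate ranges in 4 genes that were lower in *Prdm16* SMKO aortas (*Eln*, *Emilin1*, *Mfap4* and *Efemp2*), against 5.76% of all genes, and in 1 that was higher (*Efemp1*), against 7.02%. The 10 genes were chosen with earlier results of these data known, so these counts are descriptions of the list.

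**Figure D2:**
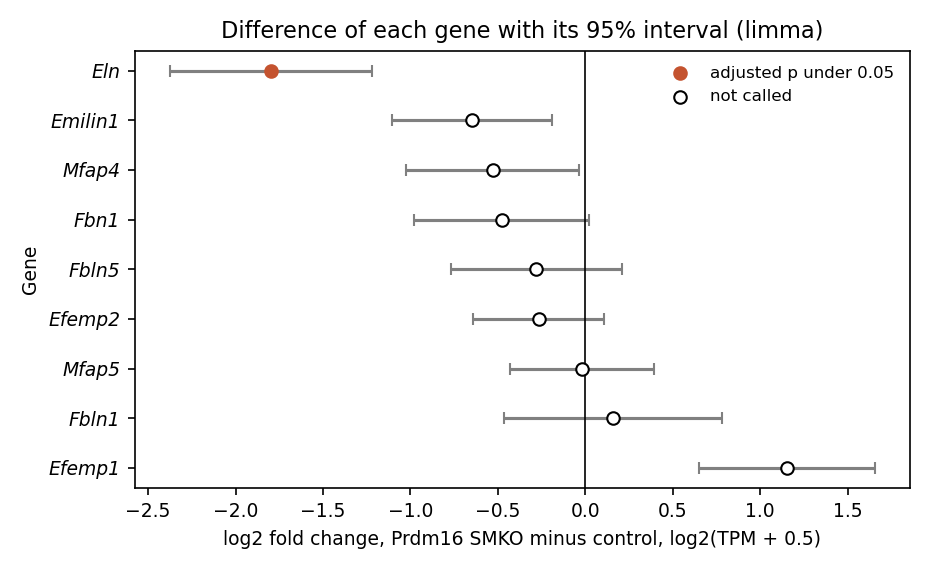
Log2 fold change of 9 elastic fibre genes (*Prdm16* SMKO minus control, on log2(TPM + 0.5)), with 95% intervals from limma as horizontal lines and one gene per row. The filled point is *Eln* at −1.80, the called gene, and the open point farthest to the right is *Efemp1* at 1.15.

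*Eln* (ENSMUSG00000029675; GRCm38, chromosome 5, 134702593 to 134747323, minus strand) encodes tropoelastin, the soluble monomer of elastin. Control libraries held 2531, 3550.0 and 1988 TPM and *Prdm16* SMKO libraries 757, 941 and 597 TPM. The lowest control library thus held more *Eln* than the highest *Prdm16* SMKO library, and within both groups replicate 2 was highest and replicate 3 lowest. The mean fell from 2690 ± 793 to 765 ± 172 TPM (SD, n = 3), to 28.4% of control, a log2 fold change of −1.80 with a 95% interval of −2.38 to −1.22 (limma adjusted p = 0.0312). Among the 15775 genes tested, 48 had a lower log2 fold change and 35 a smaller p. In whole-vessel RNA, fewer *Eln*-making cells and less *Eln* RNA per cell cannot be told apart. The direction held with each library left out, at −1.99 to −1.58, while the adjusted p rose to 0.107, 0.114 and 0.0741 without control replicate 1, 2 or 3 and to 0.0652 without *Prdm16* SMKO replicate 3. The call was also lost with no expression minimum (limma adjusted p = 0.17) and with no variance trend (0.0793), and over all alternatives fitted by limma the adjusted p ran from 0.00369 to 0.17.

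Measured against the other elastic fibre genes of the same library, *Eln* was lower in every *Prdm16* SMKO library than in any control library. *Eln* made up 73.8%, 74.7% and 71.0% of the summed TPM of the 10 genes in control replicates 1, 2 and 3, and 49.4%, 51.8% and 47.9% in *Prdm16* SMKO replicates 1, 2 and 3. The shares thus lay close together within a group and far apart between the groups. *Eln* is the largest part of these sums, so its share is not independent of the difference in its TPM. The other 9 genes together summed to 812 to 1203 TPM in control and 649 to 876 TPM in *Prdm16* SMKO libraries, which overlapped.

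The ratio of *Eln* to *Fbln5* was 11.0, 12.6 and 10.9 in control replicates 1, 2 and 3 and 4.09, 4.06 and 3.90 in *Prdm16* SMKO replicates. It varied less between the libraries of a group than *Eln* did alone. The ratio of *Eln* to *Fbn1* was 50.7, 49.9 and 44.6 in control and 20.1, 19.6 and 18.7 in *Prdm16* SMKO libraries. For each of the 8 other tested genes the ratio was lower in all *Prdm16* SMKO libraries than in any control library (exact permutation test on log2 ratios, two-sided p = 0.1 each, the smallest that 3 libraries against 3 allow). The differences in the log2 ratio ran from −1.15 for *Emilin1*, −1.27 for *Mfap4* and −1.32 for *Fbn1* to −1.78 for *Mfap5*, −1.96 for *Fbln1* and −2.95 for *Efemp1*. Against *Lox* the difference was smaller, at −0.71, with ratios of 32.8 to 52.8 in control and 21.7 to 30.04 in *Prdm16* SMKO libraries. Against the VSMC genes *Acta2*, *Myh11* and *Tagln* it was −1.33, −1.57 and −1.48, and against the fibrillar collagen genes *Col1a1* and *Col3a1* it was −1.26 and −1.05, again with no overlap between the groups. All of these ratios share *Eln*, whose own groups did not overlap, so they are not independent of each other or of that difference. Apart from the pseudocount, these ratios do not depend on a library's scaling factor.

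**Figure D3:**
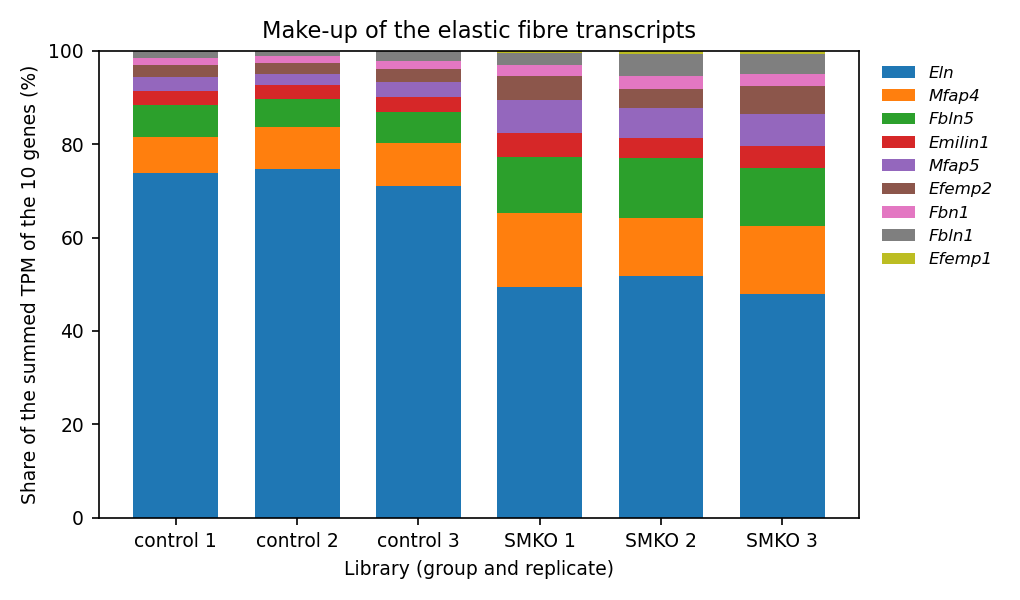
Stacked bars of the share (percent, vertical axis) that each elastic fibre gene took of the summed TPM of the 10 genes, for each of the 6 libraries on the horizontal axis. The share of *Eln*, the lowest block, is 71.0% to 74.7% in the control libraries and 47.9% to 51.8% in the *Prdm16* SMKO libraries, and every other block but that of *Fbn2*, which is too small to draw, is larger in the latter. Shares of a library have a fixed sum, so a larger block does not mean a higher TPM.

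The fibrillins form the microfibril scaffold. *Fbn1* (ENSMUSG00000027204; chromosome 2, 125300594 to 125507993, minus strand), the fibrillin of adult tissue, was at 49.9, 71.2 and 44.6 TPM in control and 37.7, 48.0 and 32.0 TPM in the *Prdm16* SMKO libraries. One *Prdm16* SMKO library, replicate 2, lay above the lowest control library, so the groups overlapped. The log2 fold change was −0.48 with a 95% interval of −0.98 to 0.02 (limma adjusted p = 0.608). Once mitochondrial and ribosomal RNA genes were removed and the TPM rescaled, a step chosen after the data were seen, the ranges of 90.3 to 116 and 62.8 to 88.4 TPM no longer overlapped. *Fbn2* (ENSMUSG00000024598; chromosome 18, 58008623 to 58210487, minus strand), the fibrillin made mainly before birth, was listed at 0.00, 0.19 and 0.01 TPM in control and 0.03, 0.03 and 0.01 TPM in the *Prdm16* SMKO libraries. No fold change is given for it, since the table keeps no read counts that would tell such values from 0.

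Of the proteins attached to microfibrils, EMILIN1 sits at the boundary of elastin and microfibril, MFAP4 binds both elastin and fibrillin, and MFAP5 (MAGP-2) is a small component of the microfibril itself. *Emilin1* (ENSMUSG00000029163; chromosome 5, 30913402 to 30921277, plus strand) was at 105, 142 and 94.5 TPM in control and 80.2, 78.2 and 57.9 TPM in the *Prdm16* SMKO libraries. All *Prdm16* SMKO libraries were below all control libraries, at 63.4% of the control mean. The log2 fold change was −0.65 with a 95% interval of −1.11 to −0.19 (limma adjusted p = 0.357, unadjusted p = 0.011). It was not called under any alternative fitted by limma, where the adjusted p went down to 0.0678 with median-of-ratios size factors.

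*Mfap4* (ENSMUSG00000042436; chromosome 11, 61485431 to 61488900, plus strand) was at 269, 426 and 261 TPM in control and 242, 225 and 183 TPM in the *Prdm16* SMKO libraries. The groups did not overlap, but control replicate 3 and *Prdm16* SMKO replicate 1 were close, and control replicate 2 stood well above the rest. The log2 fold change was −0.53 with a 95% interval of −1.02 to −0.03 (limma adjusted p = 0.534). It was −0.30 without control replicate 2. *Mfap5* (ENSMUSG00000030116; chromosome 6, 122505845 to 122529290, plus strand) was at 104, 121 and 88.3 TPM in control and 105, 119 and 85.4 TPM in the *Prdm16* SMKO libraries. The group means were 104 ± 16.2 and 103 ± 16.7 TPM (SD, n = 3), and the log2 fold change of −0.02 had a 95% interval of −0.43 to 0.39 (limma adjusted p = 0.994), with a sign that turned positive under 6 of 20 alternatives.

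The fibulins and their relatives differed from one another. *Fbln5* and *Efemp2* encode fibulin-5 and fibulin-4, both of which bind tropoelastin and lysyl oxidases and are needed for fibre assembly. *Fbln5* (ENSMUSG00000021186; chromosome 12, 101746565 to 101819055, minus strand) was at 230.0, 283 and 182 TPM in control and 185, 232 and 153 TPM in the *Prdm16* SMKO libraries, so the groups overlapped (log2 fold change −0.28, 95% interval −0.77 to 0.21, limma adjusted p = 0.845). *Efemp2* (ENSMUSG00000024909; chromosome 19, 5473954 to 5482517, plus strand) was at 88.7, 112 and 78.7 TPM in control and 78.6, 74.2 and 76.5 TPM in the *Prdm16* SMKO libraries. The groups of *Efemp2* were separated by only the gap from 78.59 to 78.65 TPM, and the log2 fold change was −0.27 (95% interval −0.64 to 0.11, limma adjusted p = 0.769). Its 3 *Prdm16* SMKO libraries had a coefficient of variation of 2.91%, against 18.3% in control. The gap and these spreads depend on the scaling. With mitochondrial and ribosomal RNA genes removed and the TPM rescaled, a step chosen after the data were seen, *Efemp2* was at 165, 183 and 159 TPM in control. The *Prdm16* SMKO libraries were then at 138, 136 and 150 TPM.

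*Efemp1* (ENSMUSG00000020467; chromosome 11, 28853204 to 28926743, plus strand), which encodes fibulin-3, was the 1 gene of the 10 that lay higher in every *Prdm16* SMKO library than in any control library. Levels were 3.08, 4.13 and 3.73 TPM in control and 7.23, 11.4 and 7.87 TPM in the *Prdm16* SMKO libraries. The means were 3.65 ± 0.53 and 8.84 ± 2.26 TPM (SD, n = 3), a log2 fold change of 1.15 with a 95% interval of 0.65 to 1.65. The limma adjusted p was 0.0841 and missed the threshold, with 113 of the 15775 genes at a smaller p. With robust moderation it was 0.0495 and with array weights 0.00751, and over all alternatives it reached 0.312. The scale of log2(TPM + 0.5) understates the change of a gene at so low a level. *Fbln1* (ENSMUSG00000006369; chromosome 15, 85205949 to 85286535, plus strand), which encodes fibulin-1, was at 49.4, 45.4 and 59.0 TPM in control and 39.2, 88.4 and 53.5 TPM in the *Prdm16* SMKO libraries. *Prdm16* SMKO replicate 2 was highest and replicate 1 lowest of all 6 libraries, the log2 fold change was 0.16 (95% interval −0.46 to 0.78, limma adjusted p = 0.955), and without replicate 2 it was −0.15.

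RefSeq promoter windows on GRCm38.p6, from 250 bases before to 50 bases after an annotated start, were at hand for 6 of the 10 genes (*Fbn1*, *Fbln1*, *Fbln5*, *Efemp1*, *Efemp2* and *Emilin1*). Those of the 3 with the largest differences between the groups are printed, 5′ to 3′ on the strand of the gene, with capitals for GC boxes (GGGCGG, or CCGCCC on the other strand) and for CAGAC, the core of SMAD binding sites (or GTCTG). They are *Efemp1* at chr11:28852955-28853254 (plus strand), *Emilin1* at chr5:30913536-30913835 (plus strand) and *Fbn1* at chr2:125506389-125506688 (minus strand). The searched words do not overlap in these windows.
Efemp1: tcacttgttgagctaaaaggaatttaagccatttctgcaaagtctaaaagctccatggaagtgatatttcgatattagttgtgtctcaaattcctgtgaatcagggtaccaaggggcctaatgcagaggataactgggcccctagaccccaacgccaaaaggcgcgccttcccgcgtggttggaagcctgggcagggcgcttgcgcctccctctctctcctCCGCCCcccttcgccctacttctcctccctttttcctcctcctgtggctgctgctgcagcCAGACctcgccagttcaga
Emilin1: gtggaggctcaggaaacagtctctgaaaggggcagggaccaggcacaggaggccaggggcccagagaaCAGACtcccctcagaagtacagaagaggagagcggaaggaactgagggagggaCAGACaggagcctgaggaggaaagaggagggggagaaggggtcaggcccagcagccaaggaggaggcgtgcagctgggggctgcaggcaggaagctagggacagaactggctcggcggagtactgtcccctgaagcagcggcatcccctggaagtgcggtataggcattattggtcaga
Fbn1: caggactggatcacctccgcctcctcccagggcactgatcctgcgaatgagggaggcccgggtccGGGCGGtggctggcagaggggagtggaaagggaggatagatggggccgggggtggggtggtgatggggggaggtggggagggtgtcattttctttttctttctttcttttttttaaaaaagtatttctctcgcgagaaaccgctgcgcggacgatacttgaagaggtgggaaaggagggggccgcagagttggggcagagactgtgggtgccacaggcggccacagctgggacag

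The *Efemp1* window held 1 GC box, 29 bases before the start, and 1 CAGAC, 32 bases after it. The *Emilin1* window held 2 CAGAC words and no GC box, and the *Fbn1* window held 1 GC box and no CAGAC. In 32851 promoter windows of the same length, a GC box was found in 35.7% and CAGAC in 49.6%, on either strand. Searches on both strands for a TATA box (TATAAA, in 13.6% of all windows), an AP-1 site (TGACTCA or TGAGTCA, 5.20%), a TEAD core (GGAATG, 14.7%), the E-box CACGTG (7.15%) and the CArG box (1.63%) had no match in the 3 windows. No binding or chromatin data are part of these libraries, so the words are a description of the sequence only. The GC content was 54.3% for *Efemp1*, 61.7% for *Emilin1* and 60.3% for *Fbn1*, against a median of 52.7% over all windows.

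Within a group, many of these genes went up and down together from library to library. Of the 9 tested genes, 8 were highest in replicate 2 among the controls and 7 were lowest in replicate 3, while among *Prdm16* SMKO libraries 6 were highest in replicate 2 and 6 lowest in replicate 3. Deviations from the group means correlated at r = −0.43 to 0.99 over all 36 pairs of the 9 genes, with 17 pairs at 0.75 or more (Pearson, 6 libraries). Of these, 15 were the pairs among *Eln*, *Fbn1*, *Fbln5*, *Emilin1*, *Mfap4* and *Mfap5*, a set picked after the correlations were seen, with 0.99 for *Eln* and *Fbln5* and 0.98 for *Eln* and *Mfap5*. *Fbln1* correlated at 0.12 with *Eln*, −0.43 with *Efemp2* and 0.79 with *Efemp1*. The points of these correlations share their libraries and the scaling of TPM to a fixed total, so they are given without a p. The pair of *Eln* and *Mfap5* thus varied together within groups, although *Eln* was at 28.4% and *Mfap5* at 98.9% of its control mean in *Prdm16* SMKO aortas.

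The 8 VSMC markers (*Acta2*, *Myh11*, *Tagln*, *Cnn1*, *Smtn*, *Myocd*, *Mylk* and *Lmod1*) varied over the same libraries. Their mean log2 level was lower by 0.28 in *Prdm16* SMKO libraries, 6 of 8 had a negative and 2 a positive fold change, none was called, and their sums overlapped between the groups. Within groups this level correlated at r = 0.98 with *Emilin1*, 0.97 with *Mfap4*, 0.86 with *Eln* and −0.35 with *Fbln1* over the 6 libraries. *Emilin1* and *Mfap4* were also at 0.82 and 0.83 within groups with the level of the neuron and Schwann cell markers. Taken relative to the VSMC marker level, a scale chosen after the data were seen, the group difference was −1.52 for *Eln* and 1.43 for *Efemp1*, each with no overlap between the groups (exact permutation test, two-sided p = 0.1). On that scale *Emilin1* was at −0.37 and *Mfap4* at −0.25, also without overlap, *Fbn1* was at −0.20, *Fbln5* at 0.0009 and *Efemp2* at 0.014, and *Mfap5* and *Fbln1* were at 0.26 and 0.44, all with overlap.

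The 7 fibroblast markers (*Pdgfra*, *Dpt*, *Lum*, *Pi16*, *Cd34*, *Clec3b* and *Scara5*) summed to 609 to 790 TPM in control and 538 to 1048 TPM in *Prdm16* SMKO libraries, with 6 of 7 fold changes positive and none called. *Fbln1* followed their mean log2 level at r = 0.99 within groups, and relative to it the group difference of *Fbln1* was −0.0047. Relative to the same markers *Eln* was at −1.96 and *Efemp1* at 0.99, both without overlap between the groups (exact permutation test, two-sided p = 0.1), and the remaining 6 genes ran from −0.81 for *Emilin1* to −0.18 for *Mfap5* with overlap.

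**Figure D4:**
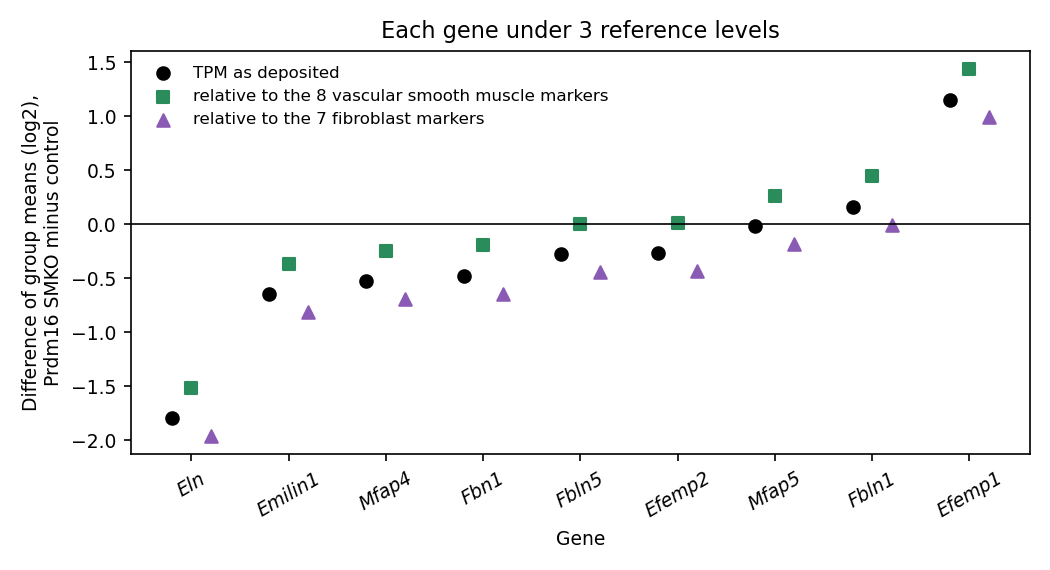
Differences of group means on a log2 scale (*Prdm16* SMKO minus control, vertical axis) for 9 elastic fibre genes, as deposited (black circles), relative to 8 VSMC markers (green squares) and relative to 7 fibroblast markers (purple triangles). *Eln* stays between −1.96 and −1.52 and *Efemp1* between 0.99 and 1.43, while *Fbln5*, *Efemp2*, *Mfap5* and *Fbln1* change sign between the scales.

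Markers of other cells also varied between libraries. Endothelial markers summed to 144 to 202 TPM in control and 187 to 379 TPM in *Prdm16* SMKO libraries, and macrophage markers to 60.0 to 92.2 and 90.1 to 169 TPM, with all 6 fold changes positive, none called and overlapping sums in both lists. *Efemp1* correlated with the mean log2 level of these lists at r = 0.83 and 0.81 over the 6 libraries and at 0.81 and 0.56 within groups. Its r within groups was also 0.70 with the fibroblast and −0.70 with the adipocyte list. With the erythroid list it was 0.74 over the 6 libraries and 0.47 within groups. The part of these cells in the difference of *Efemp1* was not tested. Erythroid markers summed to 664 to 1914 TPM in control and 1352 to 11920 TPM in *Prdm16* SMKO libraries, with replicate 2 of the latter highest. Adipocyte markers were highest in *Prdm16* SMKO replicate 3, at 960 TPM against 107 to 324 TPM in all but that library. Neuron and Schwann cell markers reached 351 TPM in *Prdm16* SMKO replicate 1, where *Th* and *Dbh* stood at 67.6 and 84.6 TPM. Cardiac and skeletal muscle markers were at 5.01 to 48.7 TPM, lymphocyte markers at 0.18 to 3.56 TPM and mesothelial markers at 0.03 to 0.60 TPM. Chondrocyte markers were at 4.14 to 6.51 TPM in control and 1.98 to 2.27 TPM in *Prdm16* SMKO libraries, a list led by *Acan* and with *Matn1* at 0 in every library. The part of these cells in the values of the elastic fibre genes was not tested.

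A wider list of 50 genes covers the enzymes, partners, receptors and proteinases of elastic fibres. Of its 45 genes above the expression minimum, none was called (limma, adjusted p under 0.05). At an unadjusted p under 0.05, 6 were lower and 5 higher in *Prdm16* SMKO aortas, where 3.85% and 4.88% of all genes were, with medians of log2 fold change of −0.08 for the list and 0.02 for all genes tested. Groups that did not overlap were seen in 6 lower and 4 higher genes, where 5.76% and 7.02% of all genes had them. Under alternatives the number called was 0 to 7, the highest with array weights, where 494 of all 15775 genes were called. Array weighting gave control replicate 1 a weight of 10.1, against 0.41 to 0.95 for the others. The 7 genes were *Lox*, *Itgb3*, *Vcan*, *Tgfb2*, *Hmcn2*, *Ctss* and *Atp7a*.

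Of 6 crosslinking genes, 5 had a negative fold change. The sixth, *Atp7a*, a copper transporter that supplies lysyl oxidases with copper, was at 2.37, 3.27 and 2.57 TPM in control and 8.08, 6.02 and 3.20 TPM in the *Prdm16* SMKO libraries, with overlap (log2 fold change 0.88, unadjusted p = 0.0202, limma adjusted p = 0.441, and 0.0474 with array weights), and is named here after its values were seen. *Lox*, the lysyl oxidase that oxidizes lysines of elastin and collagen, was at 64.7, 67.3 and 60.6 TPM in control and 25.2, 43.5 and 24.4 TPM in the *Prdm16* SMKO libraries. All *Prdm16* SMKO libraries of *Lox* were below all control libraries, with replicate 2 nearest to them (log2 fold change −1.09, SE 0.23, limma adjusted p = 0.108). Without that replicate the log2 fold change of *Lox* was −1.35 (limma adjusted p = 0.038). *Loxl1*, the lysyl oxidase-like enzyme that fibulin-5 brings to elastin, was at 153, 206 and 134 TPM in control and 108, 129 and 96.5 TPM in the *Prdm16* SMKO libraries, also without overlap (log2 fold change −0.55, SE 0.20, limma adjusted p = 0.449).

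All 6 of the other microfibril and latent TGF-beta binding protein genes had small negative fold changes, from −0.25 to −0.05, and none reached an unadjusted p under 0.05. The 6 tested genes of the other fibulins, hemicentins, emilins and multimerins were all positive, from 0.01 to 0.85. Among them *Emilin2*, a relative of *Emilin1*, was at 1.83 to 2.01 TPM in control and 2.81 to 6.15 TPM in *Prdm16* SMKO libraries (log2 fold change 0.85, limma adjusted p = 0.41), and *Hmcn2*, a large hemicentin, was at 1.64 to 4.07 and 4.16 to 5.65 TPM (0.76, limma adjusted p = 0.489). Both had groups that did not overlap, and *Emilin1* and *Emilin2* thus lay on opposite sides of 0. Fibrillin-binding ADAMTS and ADAMTS-like genes ran from −0.62 to 0.04 in log2 fold change, with 5 of 6 negative and none at an unadjusted p under 0.05.

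Of 4 proteoglycan genes, 3 had a negative and 1 a positive fold change, and those at −0.22 and 0.20 had overlapping groups. *Bgn* (biglycan) was at 1842 to 2660 TPM in control and 1071 to 1441 TPM in *Prdm16* SMKO libraries (log2 fold change −0.70, limma adjusted p = 0.332). *Vcan* (versican) was at 24.8 to 31.9 and 16.3 to 18.6 TPM (log2 fold change −0.66, limma adjusted p = 0.208) and was called with median-of-ratios size factors, quantile normalization and array weights. The 6 receptor genes had negative fold changes from −1.02 to −0.02, with a median of −0.23. Of them, 2 were lower with no overlap between the groups, against 5.76% of all genes tested. *Itgb3*, the beta chain of the αvβ3 integrin, was at 52.8, 67.9 and 43.7 TPM in control and 28.7, 32.3 and 19.6 TPM in the *Prdm16* SMKO libraries, with no overlap (log2 fold change −1.02, SE 0.23, limma adjusted p = 0.15). It was called with median-of-ratios size factors and with array weights. *Itga8*, the integrin chain of smooth muscle that pairs with beta1, was at 531 to 793 and 341 to 464 TPM (log2 fold change −0.59, limma adjusted p = 0.436).

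Of the TGF-beta ligands, *Tgfb2* was higher in every *Prdm16* SMKO library, at 27.2 to 34.9 TPM against 19.7 to 25.1 TPM in control (log2 fold change 0.53, limma adjusted p = 0.379), while *Tgfb1* and *Tgfb3* overlapped. Of 8 tested elastin-degrading proteinases, 5 had a positive and 3 a negative fold change. *Ctss*, the cysteine proteinase cathepsin S of macrophages and other antigen-presenting cells, was at 5.77, 5.05 and 3.02 TPM in control and 9.14, 14.1 and 10.6 TPM in the *Prdm16* SMKO libraries, without overlap (log2 fold change 1.23, SE 0.26, limma adjusted p = 0.118). All 6 macrophage markers had a positive fold change as well, as did 8552 of the 15775 genes tested, with a median of 0.76 on the log2 scale. Of these markers, 2 were higher without overlap between the groups, against 7.02% of all genes. None was called, against 0.355% of all genes. Their sums overlapped, with control replicate 1, at 92.2 TPM, above *Prdm16* SMKO replicate 1, at 90.1 TPM, and their part in the *Ctss* values was not tested. The other 7 ran from −0.18 to 0.22.

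**Figure D5:**
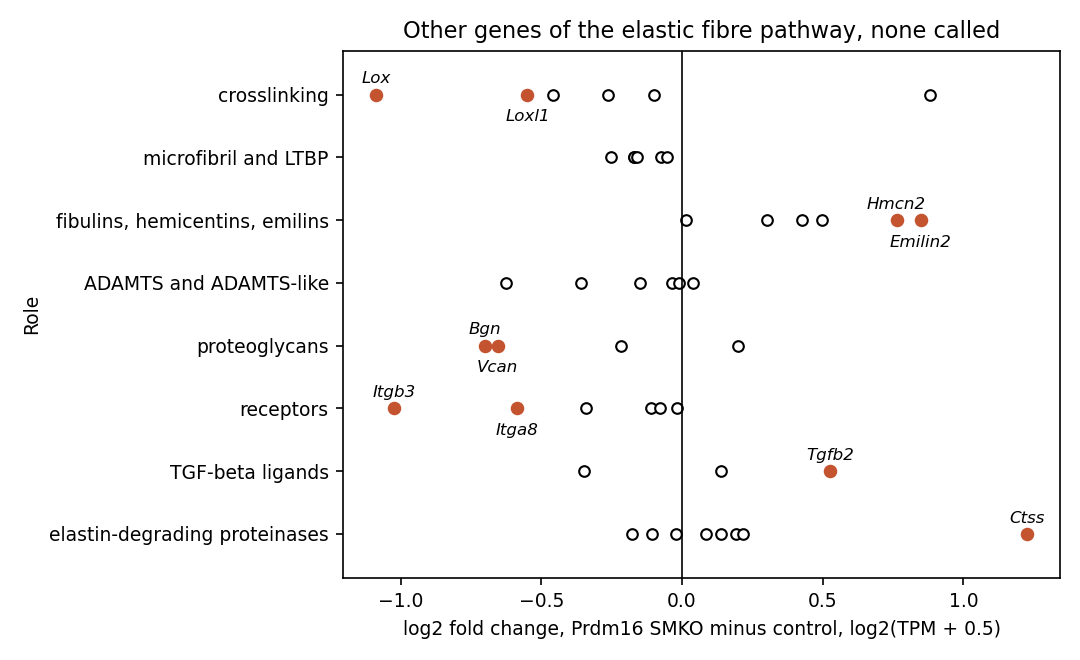
Log2 fold changes (*Prdm16* SMKO minus control, horizontal axis) of 45 other genes of the elastic fibre pathway, grouped by role on the vertical axis, with one point per gene. Filled and named points had an unadjusted limma p under 0.05 and no overlap between the groups, from *Lox* at −1.09 to *Ctss* at 1.23, and none of the 45 was called.

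The genes whose levels followed *Eln* most closely were sought among 9660 genes that averaged 5 TPM or more, by Pearson r of log2(TPM + 0.5) over the 6 libraries. The 5 with the highest r were *Ccn3* (0.997), *Pxylp1* (0.996), *Synpo2l* (0.995), *Fblim1* (0.995) and *Zfp991* (0.993), and 302 genes had an r of at least 0.9. All 5 had lower levels in every *Prdm16* SMKO library than in any control library. *Ccn3*, which encodes a secreted matricellular protein, was at 368, 431 and 347 TPM in control and 226, 255 and 198 TPM in the *Prdm16* SMKO libraries, and so shared the order of the libraries with *Eln* in both groups. *Fblim1*, which encodes the filamin-binding protein migfilin, was the 1 called gene of the 5, at 805 ± 157 and 265 ± 37.6 TPM (SD, n = 3; log2 fold change −1.60, limma adjusted p = 0.0164). *Fblim1* (141576062 to 141606096) and *Zfp991* (147132038 to 147180579) lie on chromosome 4 of GRCm38, as does *Prdm16* (154316125 to 154636873). With 6 libraries in 2 groups, any gene with a like difference between the groups has a high r, and the 6 points share their depth and scaling.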

How the data were processed

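RNA of abdominal aortas was sequenced by the authors after poly(A) selection, as 151-bp read pairs with a stated average of 40 M pairs per sample. The submitters' processing notes name cutadapt 2.3, FastQC 0.11.8, STAR 2.7.8a, RSEM 1.3.3 and MultiQC 1.7 and the build GRCm38. The authors deposited TPM values for 55426 genes, of which 28867 were at 0 in all 6 libraries. TPM keeps no read counts, so the depth of single libraries is unknown and no counting error is given. Groups were taken from the sample labels, and 0 pairs of libraries were identical.

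Genes that averaged 0.5 TPM or more were compared on log2(TPM + 0.5) with limma 3.58.1 in R 4.3.3, letting variances follow expression and weighting all libraries equally. The p-values were two-sided and were adjusted over all 15775 genes (Benjamini-Hochberg), with 0.05 as the limit for a call. This scale understates the change of low genes. Ratios and marker-relative levels were compared by exact two-sided permutation tests, for which 3 libraries against 3 cannot give a p below 0.1. Positions were those of GENCODE M21, which held 55240 of the identifiers, and promoters were those of RefSeq. Python 3.11.15 with pandas 2.3.3, scipy 1.17.1 and matplotlib 3.10.9 made the tables and figures.

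The 10 genes, the wider list and the marker lists were chosen with earlier results of these data known. All 10 genes are named. Genes of the wider list are named if called, or if they had an unadjusted p under 0.05 and groups without overlap, and so are *Prdm16* and the 5 genes most like *Eln*. Marker lists of VSMCs, fibroblasts, endothelium, macrophages, adipocytes, cardiac and skeletal muscle, neurons and Schwann cells, mesothelium, lymphocytes, erythroid cells and chondrocytes are given by sums. *Atp7a* and the fibrillar collagen and single VSMC genes set against *Eln* were named outside this rule, after their values were seen. Other settings were a pseudocount of 0.1 or 1, a minimum mean of 2 TPM or none, size factors, quantile normalization, rescaling without mitochondrial and 45S genes, other variance moderation, array weights, the replicate number as a term, and each library left out. After the data were seen, rescaling without all abundant ribosomal RNA genes and levels relative to VSMC or fibroblast markers were added.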

Additional observations from a re-analysis of the deposited data

How the results depend on the processing

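Against 56 genes called in all, the number was 10 with no expression minimum, 153 with median-of-ratios size factors, 129 with quantile normalization, 33 with no variance trend, 112 with robust moderation, 494 with array weights, 123 once mitochondrial and ribosomal RNA genes were removed (chosen after the data were seen) and 5 to 61 with 1 library left out. The array weight was 10.1 for control replicate 1 and 0.41 to 0.95 for the others. Elastic fibre genes called were 0 with no expression minimum and with no variance trend, where the limma adjusted p of *Eln* was 0.17 and 0.0793 at an unchanged log2 fold change of −1.80, and 2 with robust moderation and with array weights, which added *Efemp1* at 1.15 and 1.36. With 1 library left out the number was 0 to 1, and *Eln* stayed at −1.99 to −1.58. Of the wider list, 2 genes were called with size factors (*Itgb3* and *Vcan*), 1 with quantile normalization (*Vcan*), 7 with array weights and 0 to 1 with 1 library left out. The log2 ratios of *Eln* to the other genes kept their direction under all 8 alternatives.

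The replicate numbers did not pair the libraries, since the deviations of same-numbered libraries correlated at −0.13, −0.11 and 0.02. With a replicate block 4 genes were called in all and 0 elastic fibre genes, and *Eln* stayed at −1.80 (limma adjusted p = 0.0772). No library correlated best with the library of its own number in the other group.

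Signs turned for *Mfap5* with quantile normalization (0.029), rescaling without mitochondrial and 45S genes (0.028), array weights (0.011), without control replicate 2 (0.09) or *Prdm16* SMKO replicate 3 (0.11), and relative to VSMC markers (0.26). With 1 library left out *Mfap5* ran from −0.13 to 0.11 and *Fbln1* from −0.15 to 0.43. Signs also turned for *Fbln1* without *Prdm16* SMKO replicate 2 (−0.15) and relative to fibroblast markers (−0.0047), and for *Fbln5* (0.0009) and *Efemp2* (0.014) relative to VSMC markers, where the median of the 9 genes was 0.0009 and *Emilin1* and *Efemp1* were at −0.37 and 1.43. The median was −0.44 to −0.13 with 1 library left out. Marker-relative levels were chosen after the data were seen, and the cause of these changes was not tested. Depth per library is unknown, so no limit of detection can be given, for *Fbn2* or any other gene.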
